A study of Mus musculus with 18 samples.

Results

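The genes described here are 34 markers of endothelial cells, the cells that line blood vessels, and their values are read from RNA-seq libraries of sorted mouse beta cells. The genes were taken by name as known endothelial markers, and no threshold on their values in these libraries entered the rule. The list was drawn up with earlier results of these data known, so setting it beside all genes is not a blind comparison. All 34 were found among the 53090 gene IDs of the count table, and all 34 passed the filter on low counts that left 19284 genes for testing. Endothelial cells form the dense capillary network of the pancreatic islet. They are fenestrated there, they respond to VEGF-A from beta cells through the receptors Kdr and Flt1, and they lay down the basement membrane on which beta cells rest. Their identity is kept by ETS factors such as Erg and by the SoxF factors Sox7, Sox17 and Sox18. A beta cell is not expected to make most of these transcripts, so their level in a beta cell sort is read here as vessel RNA that came with the sorted cells. A few of the 34, described below, did not vary with the rest, and that reading may not hold for them.

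Genotype and diet define 4 groups among the 18 libraries. LIRKO mice lack the insulin receptor in the liver, and HFD is read here as a high-fat diet. The groups are 3 libraries of LIRKO mice on HFD, 4 of LIRKO mice on chow, 5 of Ctrl mice on HFD and 6 of Ctrl mice on chow. In all groups the islets were cultured overnight and dispersed with trypsin, and cells were gated by forward scatter and their own fluorescence, with no antibody against an endothelial protein named. The labels used here give no age, sex, strain, Cre line or time on diet, and do not say whether libraries are separate animals, so the p-values rest on library-to-library variation, part of which may be technical. The deletion is in the liver, so the insulin receptor gene does not check the labels: Insr had 52.4 to 54.5 CPM in LIRKO HFD, 55.0 to 60.4 CPM in LIRKO chow, 33.4 to 63.5 CPM in Ctrl HFD and 45.4 to 61.8 CPM in Ctrl chow libraries. CPM are counts per 1e6 reads on library sizes scaled by TMM, a method that corrects for a few genes taking a large share of the reads.

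Vessel genes share short promoter elements, and 4 promoters are shown because these members differ in whether they hold AGGAAG, 1 form of the site bound by ETS factors such as Erg. RefSeq promoter entries on GRCm38.p6 matched 16 of the 34 members by symbol. The search used AGGAAG and its reverse complement CTTCCT in the 250 bases before each listed transcript start, and capitals mark each match. Emcn lies on chromosome 3 (chr3:137340828-137341077, plus strand), Flt1 on chromosome 5 (chr5:147726012-147726261, minus strand), Robo4 on chromosome 9 (chr9:37401722-37401971, plus strand) and Kdr on chromosome 5 (chr5:75978456-75978705, minus strand).
Emcn: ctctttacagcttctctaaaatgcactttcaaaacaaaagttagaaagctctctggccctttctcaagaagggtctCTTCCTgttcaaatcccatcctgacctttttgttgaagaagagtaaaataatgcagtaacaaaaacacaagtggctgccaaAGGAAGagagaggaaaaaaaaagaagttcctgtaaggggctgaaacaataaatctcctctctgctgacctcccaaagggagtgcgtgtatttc
Flt1: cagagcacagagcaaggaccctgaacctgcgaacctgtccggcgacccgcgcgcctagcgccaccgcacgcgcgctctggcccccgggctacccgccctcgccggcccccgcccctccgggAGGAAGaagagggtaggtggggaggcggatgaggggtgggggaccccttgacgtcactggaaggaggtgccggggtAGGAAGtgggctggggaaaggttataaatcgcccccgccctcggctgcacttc
Robo4: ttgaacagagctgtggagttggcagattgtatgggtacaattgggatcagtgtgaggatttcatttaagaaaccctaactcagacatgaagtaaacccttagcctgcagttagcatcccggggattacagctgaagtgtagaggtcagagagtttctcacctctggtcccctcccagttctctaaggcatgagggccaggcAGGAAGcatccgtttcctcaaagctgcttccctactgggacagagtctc
Kdr: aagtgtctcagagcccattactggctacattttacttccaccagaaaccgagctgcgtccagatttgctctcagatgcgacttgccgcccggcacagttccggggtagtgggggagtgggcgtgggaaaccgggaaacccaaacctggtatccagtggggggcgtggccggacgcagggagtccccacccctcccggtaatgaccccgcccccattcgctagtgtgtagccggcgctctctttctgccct
Emcn and Flt1 held 2 matches each, Robo4 held 1 and Kdr held 0. At least 1 match was found in 11 of the 16 members (68.8%), against 32.3% of 27025 genes with an entry. Among genes with 1 listed start the shares were 9 of 14 members (64.3%) and 29.1% of genes. A SOX core, searched as ACAAAG or ACAATG on either strand, was held by 5 of 16 members (31.2%), against 28.2% of genes. None of the 4 printed promoters held a SOX core. These are matches of letters in a window and show no binding. Other and shorter forms of the ETS site were not searched, so a promoter without a match, such as that of Kdr, can still hold one.

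Libraries held 19490235 to 51714775 counts. The 34 genes took 0.00404% to 0.0659% of a library's counts, while 8 beta cell genes (Ins1, Ins2, Iapp, Mafa, Ucn3, Slc2a2, Nkx6-1 and Pdx1) summed to 98601 CPM or more in every library. LIRKO chow libraries 1 and 2, and likewise 3 and 4, were closer to each other than any other pair within a group. The median absolute deviation of their log2 ratios over 10978 genes was 0.0899 and 0.105, and 0.173 for the next closest pair. Their counts still differed by more than sampling noise, with a chi-square per degree of freedom of 9.05 and 9.43. The other pairs within a group had 38.9 to 422. A value above sampling noise does not show that the libraries of a pair come from separate animals. They were kept as separate libraries, which counts 4 for LIRKO chow and is too many if a pair shares a source. Results were also obtained with each pair summed or left out. Ctrl HFD libraries 1 and 2 stood apart by their share of Malat1 (1.37% and 1.06% of counts, against at most 0.600% in any other library) and by a low share of protein-coding counts (95.7% and 95.6%). In these bulk libraries, fewer endothelial cells and less RNA per endothelial cell cannot be told apart.

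Summed over the 34 genes, the level was 608, 557 and 466 CPM in LIRKO HFD libraries, and 43.3, 49.7, 335 and 289 CPM in LIRKO chow libraries. It was 593, 627, 315, 428 and 299 CPM in Ctrl HFD libraries, and 83.8, 118 and 390 CPM as the lowest, median and highest of 6 Ctrl chow libraries. Every HFD library of either genotype was thus above 5 of the 6 Ctrl chow libraries, and Ctrl chow library 3, the highest, lay within the HFD range. The 4 LIRKO chow libraries formed a low and a high pair that followed the near-identical libraries.

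**Figure D1:**
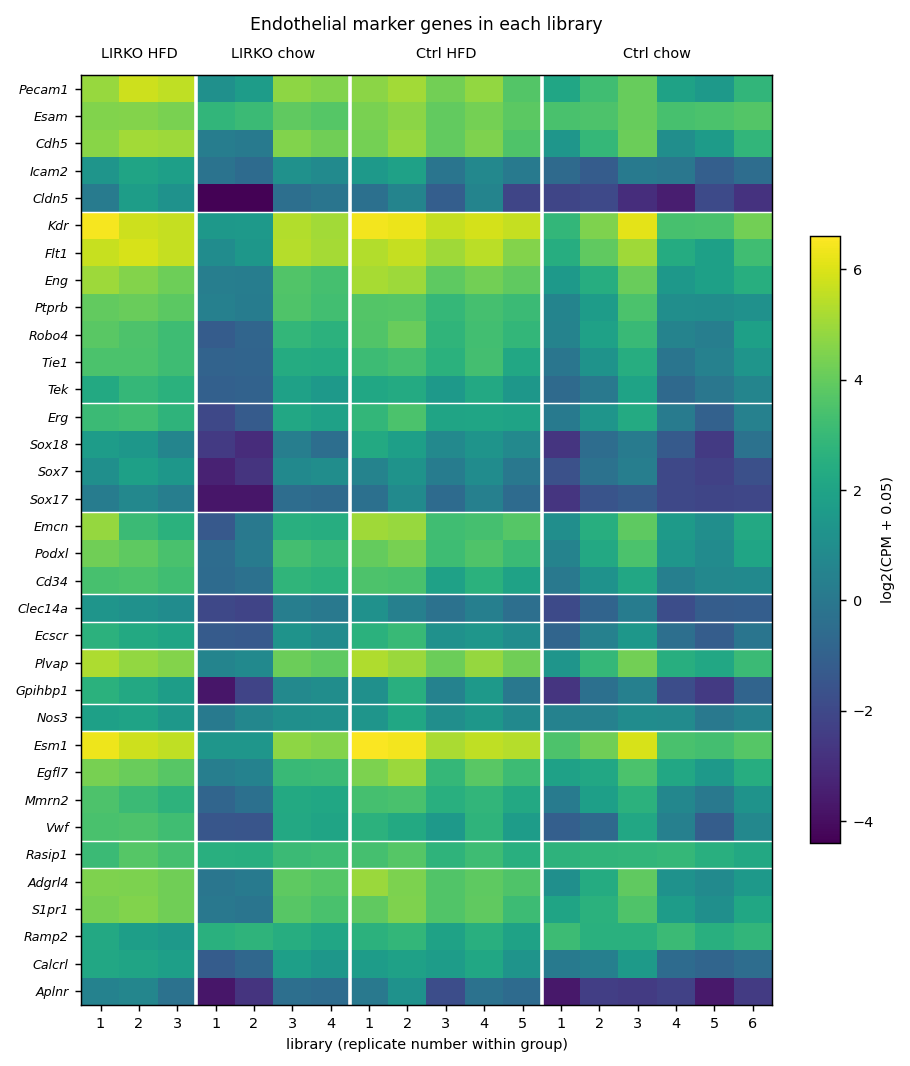
Level of each of the 34 endothelial genes (rows, grouped by role) in each of the 18 libraries (columns, by group and replicate number), as log2 of CPM + 0.05. LIRKO chow libraries 1 and 2 are dark in nearly every row, Ctrl chow library 3 is bright beside the other Ctrl chow libraries, and Ramp2, Rasip1, Esam and Nos3 vary little.

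The 34 genes spanned a wide range of levels. Per kilobase of exon, the highest mean level over the 18 libraries was that of Esm1 (endocan, a secreted proteoglycan of activated and tip endothelium) at 17.6 CPM per kb. Plvap, which forms the diaphragms of fenestrae, followed at 8.58 CPM per kb, and then Esam at 5.42 and Kdr at 4.49 CPM per kb. The lowest were Aplnr, the apelin receptor, at 0.161 and Sox17 at 0.135 CPM per kb. Most of the 34 varied together across libraries. The mean log2 CPM of the other 33 genes correlated with a gene's own log2 CPM at a Pearson r above 0.9 for 28 genes and above 0.8 for 32 (18 libraries, which share their depth and group, so this is a description). The lowest values were r = 0.78 for Rasip1, a Rap1 effector of vessel lumen formation, and r = -0.50 for Ramp2, the partner of Calcrl in the adrenomedullin receptor.

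A few of the 34 kept a floor where the others did not. Between the lowest and the highest library, Cdh5 spanned 32.8-fold and Emcn 95.3-fold, but Esam spanned only 3.65-fold, Ramp2 3.06-fold, Rasip1 2.77-fold and Nos3 4.44-fold. In LIRKO chow libraries 1 and 2, Esam still had 7.13 and 8.43 CPM and Ramp2 5.88 and 6.61 CPM, while Cdh5 had 1.15 and 1.02 CPM. Rasip1 had 5.78 and 5.66 CPM there, and Nos3 had 1.05 and 1.57 CPM. Which cells these remaining reads came from was not tested, so these genes may not measure vessel RNA alone. Ramp2 overlaps Vps25 on the same strand of chromosome 11 (chr11:101246028-101259546, GENCODE M21 on GRCm38), and Rasip1 overlaps Izumo1 on chromosome 7, so their reads could be split or shared between genes. Esam overlaps no other gene on either strand. Egfl7 hosts Mir126a on chromosome 2 and overlaps Agpat2, Nos3 overlaps Atg9b, Eng overlaps Fpgs, Plvap overlaps Gtpbp3 and Esm1 overlaps Gzmk, all on the other strand except Mir126a. In all, 5 members overlap another gene on their own strand and 10 on the other, and the strand setting of the counting is not given in the sources used here.

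HFD against chow was the comparison with the most endothelial genes past the test. In Ctrl mice, 11 of the 34 genes rose on HFD and 0 fell at an adjusted p under 0.05 (edgeR quasi-likelihood test, Benjamini-Hochberg), beside 9.93% of all genes tested, with 5.57% higher and 4.35% lower. The median log2 fold change of the 34 was 1.66, a 3.17-fold difference, against 0.04 over all genes. Of the 34, 33 had a positive fold change, against 53.1% of all genes, and the same number had an unadjusted p under 0.05 in the upward direction, against 19.1% of all genes. The exception was Ramp2. Most of the 34 genes vary together, so these counts and those below do not rest on 34 independent genes. The 11 came from several roles: Aplnr among receptors coupled to G proteins, Sox17 and Sox18 among transcription factors, Icam2 and Esam at junctions, Eng and Tie1 among other receptors, Cd34 and Ecscr at the cell surface, Egfl7 among secreted proteins, and the enzyme Nos3. Esam and Nos3 are among the genes that kept a floor.

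At junctions, Esam, an immunoglobulin-type adhesion molecule of endothelial tight junctions, had 21.0, 26.0, 15.3, 19.7 and 13.999 CPM in Ctrl HFD libraries, against 10.6, 11.4 and 16.4 CPM as the lowest, median and highest Ctrl chow library. Its log2 fold change was 0.66 ± 0.19 (SE), with an adjusted p of 0.0438 (edgeR). Icam2, a leukocyte adhesion molecule present on resting endothelium, had 2.88, 3.72, 0.858, 1.64 and 1.03 CPM, against 0.381, 0.635 and 1.03 CPM in Ctrl chow, with a log2 fold change of 1.57 ± 0.42 and an adjusted p of 0.0372 (edgeR). For both genes the groups overlapped; without Ctrl chow library 3 they no longer overlapped for Esam and still did for Icam2. Pecam1 (CD31), the adhesion receptor most used to identify endothelium, had 25.7, 33.8, 19.2, 28.5 and 12.4 CPM in Ctrl HFD, against 2.87, 5.69 and 16.6 CPM in Ctrl chow, averaging 23.9 ± 8.30 CPM (SD, n = 5) and 7.32 ± 5.12 CPM (SD, n = 6). Cdh5 (VE-cadherin), the cadherin of endothelial adherens junctions, had 19.7, 29.3, 15.6, 22.2 and 11.9 CPM, against 1.995, 5.10 and 17.3 CPM. Neither Pecam1 nor Cdh5 passed: the log2 fold changes were 1.70 ± 0.56 for Pecam1 and 1.57 ± 0.67 for Cdh5, with adjusted p-values of 0.0575 and 0.11 (edgeR). Cldn5, a claudin of tight junctions, ran from 0.185 to 1.45 CPM in Ctrl HFD and from 0.0399 to 0.216 CPM in Ctrl chow (log2 fold change 2.57, adjusted p 0.0568, edgeR).

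Among receptors, Eng, a co-receptor for BMP and TGF-beta ligands, had 36.2, 31.5, 14.6, 19.1 and 15.2 CPM in Ctrl HFD libraries, against 2.71, 4.53 and 16.9 CPM in Ctrl chow libraries. Tie1, an orphan partner of the angiopoietin receptor, had 8.89, 10.3, 6.10, 10.0 and 4.54 CPM, against 0.878, 1.82 and 5.43 CPM. Both rose, by a log2 fold change of 1.90 ± 0.58 and 1.83 ± 0.57, with adjusted p-values of 0.0479 and 0.0499 (edgeR), close to the threshold. The receptors for VEGF did not pass. Kdr (VEGFR2) had 84.1, 76.6, 48.9, 58.9 and 50.3 CPM in Ctrl HFD, against 7.39, 15.0 and 70.6 CPM in Ctrl chow, with a log2 fold change of 1.44 ± 0.64 and an adjusted p of 0.12 (edgeR). Flt1 (VEGFR1), which binds VEGF-A without strong signalling, had 40.5, 50.2, 32.7, 43.4 and 23.4 CPM, against 3.54, 7.29 and 32.2 CPM, with a log2 fold change of 1.69 ± 0.66 and an adjusted p of 0.0866. In both genes the high value in Ctrl chow was library 3, and the other 5 Ctrl chow libraries lay below every HFD library. Tek, the angiopoietin receptor, had 4.42, 4.89, 2.90, 4.66 and 2.67 CPM, against 0.599, 0.961 and 3.89 CPM (log2 fold change 1.45, adjusted p 0.0753, edgeR). Ptprb, the phosphatase that acts on Tek, and Robo4, a roundabout receptor of quiescent vessels, had log2 fold changes of 1.49 and 1.70, with adjusted p-values of 0.0859 and 0.0767.

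Of the transcription factors, Sox18 had 4.77, 3.45, 1.69, 2.39 and 1.66 CPM in Ctrl HFD libraries, against 0.105, 0.517 and 1.08 CPM in Ctrl chow libraries. Sox17 had 0.745, 1.77, 0.622, 1.26 and 0.634 CPM, against 0.105, 0.195 and 0.36 CPM. Their groups did not overlap, and both rose, with log2 fold changes of 2.39 ± 0.63 and 2.14 ± 0.60 and adjusted p-values of 0.0359 and 0.0408 (edgeR). Erg had 7.30, 11.0, 4.06, 4.13 and 3.88 CPM, against 0.462, 1.19 and 5.00 CPM, and did not pass (log2 fold change 1.67, adjusted p 0.0872). Sox7 did not pass either (log2 fold change 1.65, adjusted p 0.107).

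At the cell surface, Cd34, a sialomucin of capillary endothelium, had 11.6, 10.8, 3.64, 6.11 and 3.78 CPM in Ctrl HFD libraries, against 0.973, 1.67 and 4.51 CPM in Ctrl chow libraries (log2 fold change 1.79 ± 0.55, adjusted p 0.0496, edgeR). Ecscr, a small membrane protein of endothelial cells, had 6.21, 8.05, 2.16, 2.52 and 1.90 CPM, against 0.401, 0.787 and 2.60 CPM (log2 fold change 1.94 ± 0.56, adjusted p 0.0429, edgeR). In both, Ctrl HFD libraries 1 and 2 were the highest of their group. Among the other genes that passed, this also held for Esam, Icam2, Eng, Egfl7, Sox18 and Aplnr, but not for Sox17, Tie1 and Nos3. Emcn, a sialomucin of capillaries and veins, had 32.7, 29.8, 9.35, 10.1 and 13.0 CPM, against 1.97, 3.84 and 14.5 CPM, with an adjusted p of 0.0707. Podxl, another sialomucin, and the lectin Clec14a had log2 fold changes of 1.61 and 1.34 that did not pass.

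Plvap had 38.8, 31.1, 17.5, 28.7 and 18.6 CPM in Ctrl HFD libraries, against 2.50, 6.56 and 18.9 CPM in Ctrl chow libraries (log2 fold change 1.76 ± 0.56, adjusted p 0.0536, edgeR). Gpihbp1, which holds lipoprotein lipase on the capillary wall, was next to the threshold as well (log2 fold change 2.36, adjusted p 0.0545). Nos3, the endothelial nitric oxide synthase, had 2.48, 4.38, 1.98, 2.65 and 1.72 CPM in Ctrl HFD, against 0.986, 1.34 and 1.88 CPM in Ctrl chow, and rose by a smaller step than most of the list (log2 fold change 0.86 ± 0.26, adjusted p 0.047, edgeR). Egfl7, a secreted regulator of vessel tube formation, had 21.8, 30.7, 7.55, 13.8 and 8.77 CPM, against 2.90, 4.54 and 11.1 CPM (log2 fold change 1.62 ± 0.50, adjusted p 0.0497, edgeR). The other secreted proteins did not pass: Esm1 had a log2 fold change of 1.53, Mmrn2, the matrix ligand of Clec14a, 1.53, and Vwf, the platelet-binding clotting factor, 1.68.

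The largest fold change of the 34 was that of Aplnr, with 0.993, 2.28, 0.237, 0.787 and 0.634 CPM in Ctrl HFD libraries, against 0.0263, 0.128 and 0.160 CPM in Ctrl chow libraries (log2 fold change 3.21 ± 0.71, adjusted p 0.028, edgeR). Its groups did not overlap, although its Ctrl chow values are near the level of a few reads. S1pr1, the sphingosine 1-phosphate receptor that keeps junctions tight, and Adgrl4, an adhesion receptor of vessels, had log2 fold changes of 1.48 and 1.90 that did not pass. Calcrl had a log2 fold change of 1.52 (adjusted p 0.0579, edgeR) while its partner Ramp2 had -0.38 (adjusted p 0.204). Rasip1 had 0.46 (adjusted p 0.123).

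**Figure D2:**
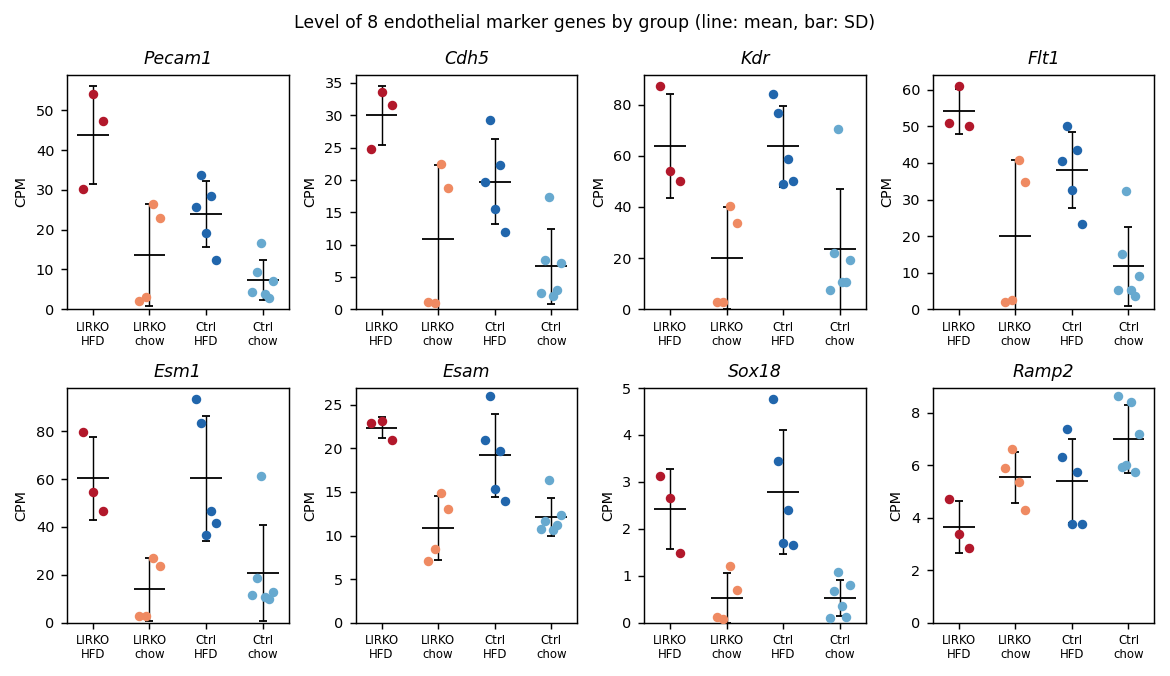
CPM of 8 of the endothelial genes in each library (points), by group from left to right LIRKO HFD, LIRKO chow, Ctrl HFD and Ctrl chow, with the group mean as a line and the SD as a bar; each axis starts at 0, which cuts off the lower bar where the SD exceeds the mean. The LIRKO chow points split into a low and a high pair in Pecam1, Cdh5, Kdr, Flt1 and Esm1, and Ramp2 is the 1 gene whose mean is highest in Ctrl chow.

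The direction in Ctrl mice was steadier than the calls. Every Ctrl HFD library was above every Ctrl chow library for 3 of the 34 genes (Aplnr, Sox17 and Sox18), beside 1.43% of all genes. Without Ctrl chow library 3 this held for 29 of 34, beside 3.23% of all genes, and 28 of the 34 passed, beside 8.35% of all genes in that fit. With Ctrl HFD libraries 1 and 2 left out, 0 passed (lowest adjusted p 0.147, edgeR, with 13 at an unadjusted p under 0.05, all 34 tested), beside 0.18% of all genes. The median log2 fold change was then 1.28. Leaving out any of Ctrl chow libraries 1, 2 or 6 or Ctrl HFD libraries 1 or 2 also brought the count to 0, with 29 to 32 at an unadjusted p under 0.05 (edgeR). The share of all genes that passed fell as well, to between 0.359% and 0.829% in these fits. The count was 2 without Ctrl chow library 5, 5 or 4 without LIRKO chow library 3 or 4, and 5, 3 or 3 without LIRKO HFD library 1, 2 or 3, which enter the fit through the shared spread. Between 4.19% and 8.67% of all genes passed there. A fit to the Ctrl libraries alone called 0 of 32, with 31 at an unadjusted p under 0.05 (edgeR), and 0.00585% of all genes, which is 1 of 17092. In each of these fits all but 1 of the genes tested had a positive fold change. A DESeq2 Wald test called 25, beside 20.5% of all genes.

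In LIRKO mice the median difference on HFD was of similar size, the chow libraries varied more, and 1 gene passed. The median log2 fold change of the 34 was 1.68 (3.20-fold), against 0.03 over all genes, and 33 of the 34 were positive, beside 52.9% of all genes. Esam alone passed, and rose, beside 2.03% of all genes, or 1.06% upward. Esam is among the genes that kept a floor, so its rise may not measure vessel RNA alone. At an unadjusted p under 0.05, 25 of the 34 were higher and 1 lower, beside 16.5% of all genes in either direction and 8.78% upward. Every LIRKO HFD library was above every LIRKO chow library for 32 of the 34 genes, all but Ramp2 and Rasip1, beside 16.1% of all genes. The 32 vary together and are not independent of each other.

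Esam had 22.9, 23.2 and 21.0 CPM in LIRKO HFD libraries, against 7.13, 8.43, 14.8 and 13.1 CPM in LIRKO chow libraries (log2 fold change 1.04 ± 0.24, adjusted p 0.0306, edgeR). Pecam1 had 30.2, 54.2 and 47.3 CPM, against 2.16, 3.12, 26.6 and 23.0 CPM (log2 fold change 1.68 ± 0.69, adjusted p 0.227). Cdh5 had 24.8, 33.5 and 31.5 CPM, against 1.15, 1.02, 22.5 and 18.8 CPM (1.46 ± 0.82, adjusted p 0.384). In each the HFD libraries were the highest, and the gap to the chow libraries was narrow for the high pair and wide for the low pair. Icam2 had 2.47, 4.01 and 3.41 CPM in LIRKO HFD, against 0.808, 0.624, 2.22 and 1.76 CPM in LIRKO chow.

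Kdr had 87.4, 54.0 and 50.1 CPM in LIRKO HFD libraries, against 2.69, 2.92, 40.4 and 33.7 CPM in LIRKO chow libraries (log2 fold change 1.68 ± 0.80, adjusted p 0.301, edgeR). Flt1 had 51.0, 61.1 and 50.2 CPM, against 1.89, 2.64, 40.9 and 34.8 CPM. Eng had 31.5, 23.6 and 18.1 CPM, against 1.20, 1.15, 12.4 and 10.2 CPM. The receptors thus followed the same split of the chow libraries. Tie1 had 11.1, 11.1 and 9.12 CPM in LIRKO HFD, against 0.490, 0.499, 5.17 and 4.97 CPM in LIRKO chow, and Tek had 4.85, 7.46 and 6.09 CPM, against 0.441, 0.474, 3.61 and 2.85 CPM.

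Erg had 8.39, 9.20 and 6.77 CPM in LIRKO HFD libraries, against 0.196, 0.374, 4.49 and 3.68 CPM in LIRKO chow libraries. Sox17 had 1.10, 1.61 and 1.18 CPM, against 0.0245, 0.0249, 0.679 and 0.604 CPM. Sox18 had 3.14, 2.66 and 1.48 CPM, against 0.122, 0.0748, 1.20 and 0.686 CPM. All 3 factors were lowest in the low chow pair, where Erg had 8 and 15 counts, Sox18 had 5 and 3, and Sox17 had 1 in each library.

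Emcn had 28.6, 8.57 and 6.04 CPM in LIRKO HFD libraries, against 0.343, 0.998, 5.83 and 5.46 CPM in LIRKO chow libraries. Cd34 had 10.6, 11.3 and 9.42 CPM, against 0.637, 0.773, 6.85 and 6.07 CPM. Ecscr had 6.39, 4.86 and 3.98 CPM, against 0.367, 0.349, 2.36 and 1.84 CPM. LIRKO HFD library 1 had the highest Emcn of its group by a wide margin and no such lead in Cd34. Plvap had 37.5, 28.5 and 23.4 CPM, against 1.45, 1.70, 17.6 and 14.6 CPM, and Egfl7 had 20.0, 17.0 and 13.2 CPM, against 1.20, 1.32, 8.35 and 8.40 CPM. Nos3 had 3.60, 3.86 and 2.68 CPM, against 1.05, 1.57, 2.06 and 2.14 CPM, and Aplnr had 1.34, 1.53 and 0.777 CPM, against 0.0245, 0.0998, 0.719 and 0.659 CPM. None of these passed in LIRKO mice.

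The size of the difference on HFD in LIRKO mice rested on which chow pair was used. Against libraries 1 and 2 alone the median log2 fold change was 4.28 and 30 of 34 genes passed, beside 3.98% of all genes in that fit. Against libraries 3 and 4 alone it was 0.82 and 0 passed (lowest adjusted p 0.483, edgeR, with 1 at an unadjusted p under 0.05), beside 0.0151% of all genes. With each pair summed to 1 library, 0 passed (lowest adjusted p 0.207, edgeR), beside 0.0354% of all genes, and the median was 1.66. Leaving out 1 library at a time, Esam was lost without any single LIRKO HFD library and without LIRKO chow library 1 or 2. Between 0.284% and 0.498% of all genes passed in those fits.

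**Figure D3:**
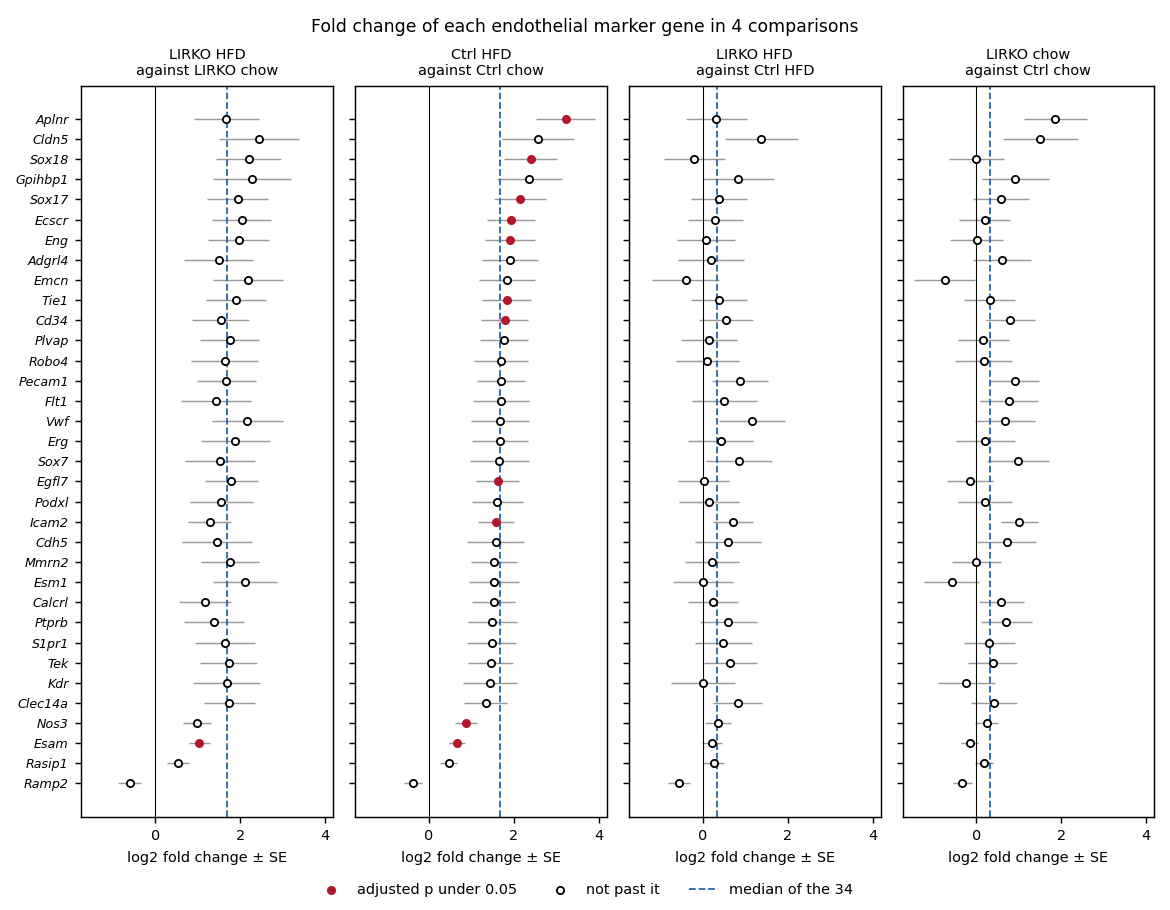
Log2 fold change ± SE of each of the 34 endothelial genes in 4 comparisons (panels), with genes ordered by their change in Ctrl mice; filled red points passed an adjusted p under 0.05 (edgeR), and the dashed line is the median of the 34. The points of both diet panels lie right of 0 except Ramp2, with medians of 1.68 in LIRKO and 1.66 in Ctrl, while in the genotype panels they lie around medians of 0.34 and 0.31 and none passed.

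The 4 LIRKO chow libraries differed widely among themselves. For 33 of the 34 genes both libraries 3 and 4 were above both libraries 1 and 2, a pattern that held for 32.0% of all genes; Ramp2 was the exception. The ratio of the mean of libraries 3 and 4 to that of libraries 1 and 2 was 19.01 for Cdh5, 16.7 for Flt1, 15.0 for Robo4, 13.2 for Kdr, 14.3 for Erg and 9.40 for Pecam1. It was 1.79 for Esam, 1.60 for Nos3, 1.54 for Rasip1 and 0.774 for Ramp2. Cldn5 had 0 counts in libraries 1 and 2, which allows up to 0.0735 and 0.0748 CPM (3 counts, counting error only), and 0.719 and 0.878 CPM in libraries 3 and 4. Libraries 1 and 2 lay below every Ctrl chow library for 25 of the 34 genes, beside 8.96% of all genes, and libraries 3 and 4 lay above every Ctrl chow library for 12, beside 13.5% of all genes.

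Set against Ctrl mice on chow, LIRKO mice on chow showed no endothelial gene past the test (0 of 34, beside 5.15% of all genes). At an unadjusted p under 0.05 there were 2 (edgeR), beside 18.8% of all genes, and a DESeq2 Wald test also called 0, beside 8.55% of all genes. Those 2 were Aplnr, with a log2 fold change of 1.86 ± 0.74 and an adjusted p of 0.172, and Icam2, with 1.01 ± 0.44 and 0.213. The median log2 fold change of the 34 was 0.31, with 27 positive, beside 47.4% of all genes. That median turned with the pair used. It was -2.25 with libraries 1 and 2 alone, where 1 gene was positive and S1pr1 was lower and passed, beside 1.3% of all genes. It was 1.18 with libraries 3 and 4 alone, where 33 were positive and Aplnr and Cldn5 were higher and passed, beside 2.41% of all genes. Pecam1 averaged 13.7 ± 12.9 CPM in LIRKO chow (SD, n = 4) and 7.32 ± 5.12 CPM in Ctrl chow (SD, n = 6), a log2 fold change of 0.90 ± 0.58 (adjusted p 0.44, edgeR), so the spread within LIRKO chow was nearly as large as its mean.

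On HFD, no endothelial gene separated LIRKO from Ctrl mice in the test. None of the 34 passed, beside 0.508% of all genes, and a DESeq2 Wald test also called 0, beside 1.64% of all genes. At an unadjusted p under 0.05 there was 1 (edgeR), beside 7.81% of all genes. It was Ramp2, which had 4.73, 3.38 and 2.83 CPM in LIRKO HFD libraries, against 6.31, 7.40, 3.76, 5.73 and 3.78 CPM in Ctrl HFD libraries (log2 fold change -0.56 ± 0.26, adjusted p 0.607). Kdr averaged 63.9 ± 20.5 CPM in LIRKO HFD (SD, n = 3) and 63.8 ± 15.8 CPM in Ctrl HFD (SD, n = 5), and Esm1 averaged 60.3 ± 17.2 CPM and 60.4 ± 26.2 CPM, the smallest differences of the list. Pecam1 averaged 43.9 ± 12.4 CPM in LIRKO HFD and 23.9 ± 8.30 CPM in Ctrl HFD, with a log2 fold change of 0.88 ± 0.65 (adjusted p 0.787, edgeR), and Cldn5 had the highest fold change, 1.38 ± 0.86 (adjusted p 0.745). The median log2 fold change was 0.34, with 30 positive, beside 45.4% of all genes; it was 0.62 without Ctrl HFD library 2 and 0.70, with 33 positive, without Ctrl HFD libraries 1 and 2. For Vwf and Ptprb every LIRKO HFD library was above every Ctrl HFD library, which held for 2.51% of all genes. Vwf had 10.8, 11.4 and 9.20 CPM in LIRKO HFD, against 6.26, 4.75, 2.84, 6.68 and 3.12 CPM in Ctrl HFD, with a log2 fold change of 1.15 ± 0.77 and an adjusted p of 0.761 (edgeR).

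The difference between the diets was tested for a dependence on genotype with the interaction term. None of the 34 passed (lowest adjusted p 0.977; 0 at an unadjusted p under 0.05, edgeR; 0 by DESeq2), beside 0.00519% of all genes, which is 1 gene, past the adjusted threshold and 5.52% past the unadjusted one. DESeq2 called 0.218% of all genes. Of the 34, 16 were positive, beside 47.5% of all genes, and the median was -0.02. Both genotypes are set against chow groups, and the LIRKO one is the split group: without its libraries 3 and 4 the median interaction was 2.44, and without its libraries 1 and 2 it was -0.81.

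The mix of endothelial transcripts, apart from their amount, was read as the level of each gene relative to Pecam1 in the same library. For 7 of the other 33 genes (Emcn, Eng, Esm1, Kdr, Mmrn2, Robo4 and S1pr1) the ratio was lower in every LIRKO chow library than in every Ctrl chow library, which held for 0.249% of all genes. Genes that do not follow Pecam1 can hardly show this. Pecam1 had 2.16 and 3.12 CPM in LIRKO chow libraries 1 and 2 and 16.6 CPM in Ctrl chow library 3. Ramp2 divided by Pecam1 was accordingly 2.73, 2.12 and 0.362 in these libraries. The share over all genes is thus no measure of how unusual the 7 are. Kdr divided by Pecam1 was 1.25, 0.936, 1.52 and 1.46 in LIRKO chow libraries, against 1.72 to 4.27 in Ctrl chow libraries, so the high and the low LIRKO chow pair both lay below the Ctrl range. Emcn divided by Pecam1 was 0.159, 0.320, 0.220 and 0.237 in LIRKO chow, against 0.466 to 0.879 in Ctrl chow. Esm1 divided by Pecam1 was 1.19, 0.824, 1.01 and 1.03, against 1.83 to 3.71.

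The denominator mattered: relative to Cdh5 in place of Pecam1, an alternative chosen after the values had been seen, 0 of 33 genes showed this pattern (0.0104% of all genes, a share limited in the same way). In LIRKO HFD libraries the ratio to Pecam1 split 1 library from the other 2. Kdr divided by Pecam1 was 2.90, 0.996 and 1.06, Esm1 divided by Pecam1 was 2.64, 1.01 and 0.987, and Emcn divided by Pecam1 was 0.947, 0.158 and 0.128. In Ctrl HFD libraries the same 3 ratios ran from 2.07 to 4.04, from 1.64 to 3.64 and from 0.354 to 1.27. LIRKO HFD library 1 thus lay within the Ctrl HFD range, and libraries 2 and 3 lay below it for each of these genes.

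**Figure D4:**
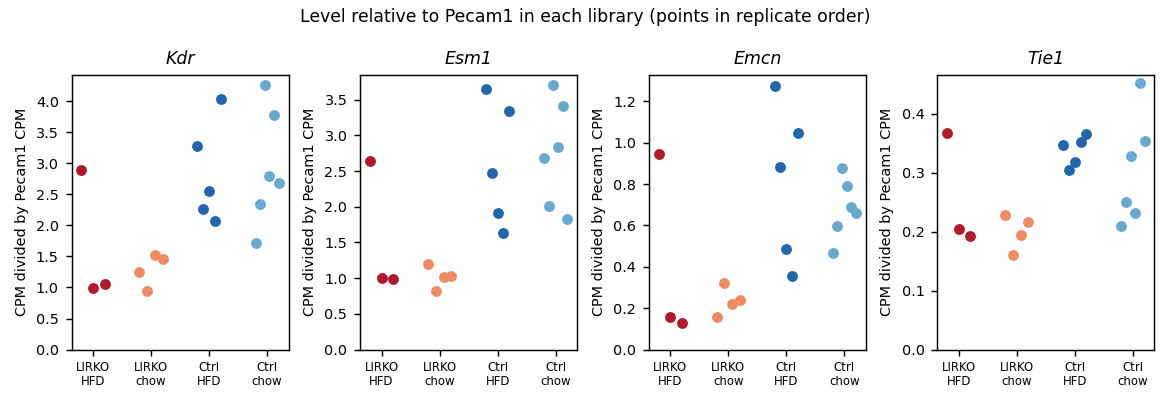
CPM of Kdr, Esm1, Emcn and Tie1 divided by the CPM of Pecam1 in each library (points), by group. For Kdr, Esm1 and Emcn the 4 LIRKO chow libraries lie below all 6 Ctrl chow libraries, and LIRKO HFD library 1 lies apart from libraries 2 and 3; for Tie1 the chow groups overlap.

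Genes outside the list with the most similar profile were sought among 12364 protein-coding genes by Pearson r of log2 CPM with the mean log2 CPM of the 34, over 18 libraries. The nearest was Sparc, a matrix glycoprotein (r = 0.99), followed by Sema3f, Plpp1, Wwtr1, Ets1, Mcam, Lims2, Nes, Ctla2a, Itgb3, Fabp4, Adcy4, Lamb1, Ednrb and Col4a2 (r = 0.98 or 0.99 each). Among them, Ets1 is an ETS transcription factor, Mcam (CD146) is an adhesion molecule of endothelial and mural cells, Ednrb is an endothelin receptor, and Lamb1 and Col4a2 are chains of basement membrane laminin and collagen. In all 114 candidates had an r above 0.9. Over the 14 libraries outside LIRKO chow the named 15 kept r values from 0.96 to 0.99. Sparc had 1.62 to 72.7 CPM across the libraries.

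The partners of these receptors were counted from a list of vessel ligands and co-receptors, of which 24 were tested. In Ctrl mice 4 rose on HFD and 0 fell, beside 5.57% of all genes higher and 4.35% lower: Pgf, the ligand of Flt1 (log2 fold change 1.22, adjusted p 0.0236), the Notch ligands Dll4 (log2 fold change 1.06, adjusted p 0.0305) and Jag1 (log2 fold change 0.63, adjusted p 0.0434), and the endothelial receptor Notch4 (log2 fold change 1.56, adjusted p 0.0343; all edgeR). In LIRKO mice Pgf alone rose on HFD (log2 fold change 1.34, adjusted p 0.0327, edgeR), beside 1.06% of all genes higher. Pgf had 14.5, 8.85 and 6.87 CPM in LIRKO HFD, 3.75, 3.07, 4.85 and 4.20 CPM in LIRKO chow, and 11.4, 15.6, 7.02, 6.80 and 6.66 CPM in Ctrl HFD, against 2.87, 3.99 and 5.21 CPM as the lowest, median and highest in Ctrl chow; for Pgf the diets did not overlap in either genotype. Angptl4 and Slit2 were higher in LIRKO chow than in Ctrl chow (log2 fold changes 1.67 and 1.46, adjusted p 0.0233 and 0.0091, edgeR). These are 2 of the 24 tested, beside 5.15% of all genes in either direction. The 3 most abundant of the list were Vegfa (718 CPM over all libraries), Thbs1 (57.5 CPM) and Jag2 (40.8 CPM). Vegfa, the main signal from beta cells to Kdr, did not pass in any comparison (lowest adjusted p 0.633).

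Markers of vessel types were counted likewise, beside the same 5.57% of all genes higher in Ctrl mice and 1.06% in LIRKO mice. In Ctrl mice on HFD, 3 of 5 tested artery genes rose (Gja4, Hey1 and Sema3g, log2 fold changes 2.17, 1.81 and 1.23), as did 3 of 6 capillary genes (Rgcc, Fabp4 and Aqp1, 1.63, 2.33 and 2.30). Of 3 tested vein genes 0 passed in Ctrl mice. Ephb4 had a log2 fold change of 1.54 (adjusted p 0.0697, edgeR), and its diets overlapped. The summed vein level did not overlap between the diets, at 3.09 to 5.48 CPM in Ctrl HFD and 1.32 to 2.83 CPM in Ctrl chow. The artery sum did overlap (10.7 to 25.1 CPM against 4.07 to 14.5 CPM), as did the capillary sum (35.7 to 66.4 CPM against 17.9 to 64.1 CPM). Whether vessel types differed from each other was not tested. In LIRKO mice Aqp1, the water channel aquaporin 1, rose on HFD (log2 fold change 3.24, adjusted p 0.0227, edgeR), and so did Selp, the P-selectin of activated endothelium and platelets (log2 fold change 5.12, adjusted p 0.0161), a gene of both the vein list (1 of 3 tested) and the endothelial activation list (1 of 4 tested). Selp had 0.0871, 2.42 and 2.18 CPM in LIRKO HFD, against 0.0245, 0.0249, 0.0599 and 0.0549 CPM in LIRKO chow, so the high values were those of libraries 2 and 3. Cd36 (27.4 CPM), Efnb2 (4.75 CPM) and Ephb4 (1.78 CPM) were the most abundant of the capillary, artery and vein genes over all libraries. Of 6 genes listed for lymphatic endothelium, Pdpn and Ccl21a had 0 counts in every library, while Prox1 (52.5 CPM), Lyve1 (13.1 CPM), Reln (8.36 CPM) and Flt4 (4.72 CPM over all libraries) were present in every library. Flt4 split the LIRKO chow libraries as the 34 genes did (0.269, 0.424, 5.45 and 4.31 CPM). Prox1 (55.8, 57.2, 57.0 and 62.3 CPM), Lyve1 (15.5, 15.4, 17.1 and 16.6 CPM) and Reln (3.87, 4.74, 3.12 and 3.49 CPM) did not. Their presence does not show lymphatic cells, and the cells they came from were not tested. Reln fell on HFD in Ctrl mice (log2 fold change -2.08, adjusted p 0.0341, edgeR) and was lower in LIRKO chow than in Ctrl chow (-2.26, adjusted p 0.0288, edgeR).

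Markers of other cells moved with the endothelial genes in part, and their counts are likewise to be read beside 5.57% of all genes higher on HFD in Ctrl mice and 1.06% in LIRKO mice. Among 8 genes of the vessel basement membrane, Lama5 and Sparc rose on HFD in Ctrl mice and the sum ran from 235 to 288 CPM in LIRKO HFD, 27.9 to 172 CPM in LIRKO chow, 143 to 301 CPM in Ctrl HFD and 27.9 to 177 CPM in Ctrl chow. Among 10 markers of mural cells (pericytes and smooth muscle), Abcc9, Notch3, Myh11 and Des rose on HFD in Ctrl mice, and the sum ran from 33.9 to 44.8 CPM in LIRKO HFD, 7.64 to 26.5 CPM in LIRKO chow, 23.3 to 43.3 CPM in Ctrl HFD and 6.89 to 24.1 CPM in Ctrl chow. Of these risers, Sparc and Des showed the wide LIRKO chow split. Notch3 and Myh11 did not, nor did Abcc9 (2.55, 2.84, 3.95 and 4.36 CPM, against 0.239 to 1.60 CPM in Ctrl chow) and Lama5 (11.1, 11.4, 12.4 and 14.4 CPM, against 1.00 to 9.14 CPM). In each list 1 gene was higher in LIRKO chow than in Ctrl chow, beside 5.15% of all genes in either direction. LIRKO chow libraries 1 and 2 were the lowest, and Ctrl chow library 3 the highest, of their groups for mural and basement membrane sums as for endothelial ones. Of 10 macrophage markers, 0 passed in Ctrl mice and 2 (Lyz2 and C1qc) rose on HFD in LIRKO mice; the sums ran from 214 to 238 CPM in LIRKO HFD, 101 to 170 CPM in LIRKO chow, 138 to 286 CPM in Ctrl HFD and 122 to 206 CPM in Ctrl chow. Of 6 tested fibroblast markers 0 passed in any comparison, with sums from 4.85 to 21.7 CPM, 0.150 to 8.11 CPM, 1.74 to 61.9 CPM and 0.462 to 11.8 CPM in the same order. LIRKO chow libraries 1 and 2 were the lower ones here too: their macrophage sums were 101 CPM each, with 170 and 153 CPM in libraries 3 and 4, and their fibroblast sums were 0.441 and 0.150 CPM, with 8.11 and 6.12 CPM. Ctrl chow library 3 was not the highest of its group for either list. Of the 8 beta cell genes, Mafa and Pdx1 fell on HFD in Ctrl mice, Mafa fell on HFD in LIRKO mice (log2 fold change -2.24, adjusted p 0.0483, edgeR) and 0 rose in either, and the sum of the 8 ran from 109182 to 207732 CPM in LIRKO HFD, 169691 to 219627 CPM in LIRKO chow, 98601 to 203154 CPM in Ctrl HFD and 141105 to 232008 CPM in Ctrl chow. Ctrl chow library 3 had the lowest beta cell sum of its group (141105 CPM) and the highest acinar sum (448 CPM, with 3.28 to 139 CPM in the others). LIRKO chow libraries 1 and 2 had alpha cell sums of 411 and 409 CPM, with 1857 and 2029 CPM in libraries 3 and 4, and PP cell sums of 144 and 127 CPM, with 394 and 325 CPM. Acinar genes ran the opposite way, at 166 and 207 CPM in libraries 1 and 2 and 42.4 and 19.1 CPM in libraries 3 and 4. None of 7 acinar, 6 alpha cell, 5 duct, 2 delta cell, 2 PP cell and 2 erythroid genes tested passed for diet in either genotype, while the platelet gene Itga2b rose on HFD in Ctrl mice. Of 2 tested Schwann cell genes, 1 rose on HFD in Ctrl mice and 0 in LIRKO mice. The Schwann cell sums ran from 21.5 to 25.7 CPM in LIRKO HFD, 13.0 to 14.5 CPM in LIRKO chow, 19.9 to 44.9 CPM in Ctrl HFD and 11.5 to 23.9 CPM in Ctrl chow. The part of the other cell types and of RNA quality in the endothelial differences was not tested.

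**Figure D5:**
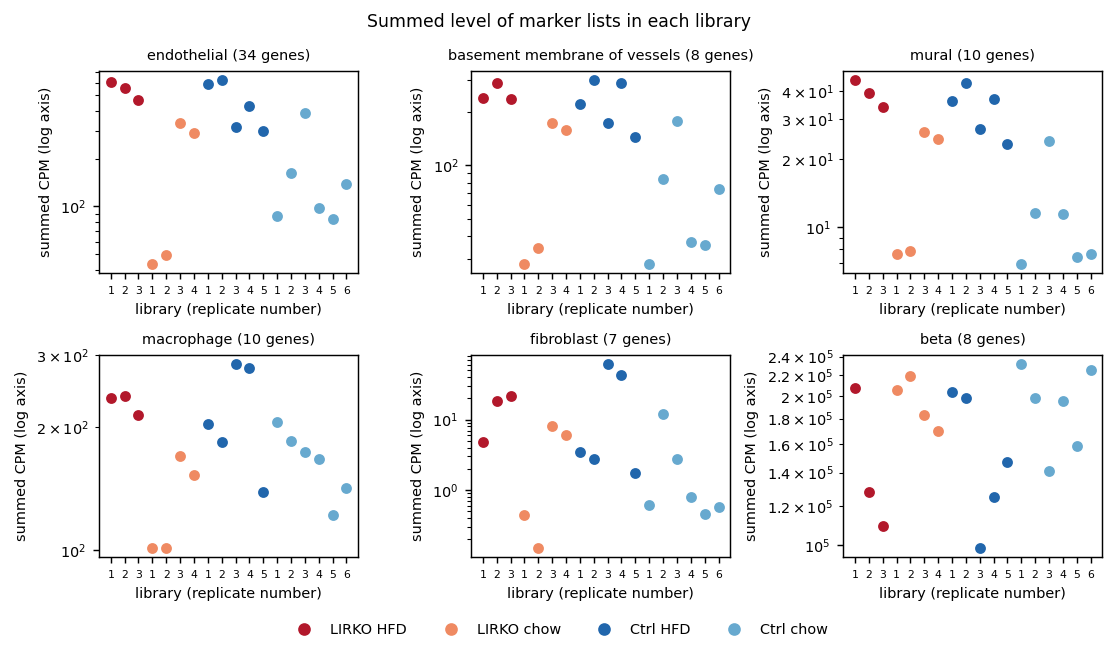
Summed CPM (log axis) of the endothelial genes and of 5 other marker lists in each library, by group and replicate number. The endothelial, basement membrane and mural sums share the low LIRKO chow libraries 1 and 2 and the high Ctrl chow library 3; macrophage and fibroblast sums are also low in LIRKO chow libraries 1 and 2 but not highest in Ctrl chow library 3, and the beta cell sum is not low in LIRKO chow libraries 1 and 2.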

How the data were processed

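RNA-seq counts per gene, deposited by the authors as raw whole numbers for 18 libraries, were made with STAR, featureCounts and GRCm38, per the submitters' processing notes; their versions, the annotation release and the strandedness option are not stated there. Per the labels' protocols, total RNA of sorted cells went into directional libraries. Of 53090 gene IDs, 52489 were named with GENCODE M21; the other 601 held at most 0.0176% of a library's counts. Groups came from genotype and diet labels, with replicates numbered in accession order. The 34 genes and all other lists were chosen with earlier results of these data known.

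Counts were scaled by TMM and tested with edgeR 4.0.16 (R 4.3.3, limma 3.58.1), quasi-likelihood F test, two-sided, filterByExpr, all 18 libraries with 1 coefficient per group, and Benjamini-Hochberg adjustment over 19284 genes at 0.05. The method was tested on simulated data. CPM are counts per 1e6 on the TMM-scaled library sizes, and log2 CPM used a prior count of 2. Depth was 19490235 to 51714775 counts per library; limits for a count of 0 cover counting error only. For the most used markers and members that passed in any comparison, values are given in every LIRKO HFD, LIRKO chow and Ctrl HFD library. Their Ctrl chow values are given as lowest, median and highest. The others are given by fold change or range. Similar profiles were ranked among genes with a mean log2 CPM of at least 0. Alternatives were DESeq2 1.42.0 (test and size factors), other filters, fits to the compared groups alone, the near-identical LIRKO chow pairs summed or left out, Ctrl HFD libraries 1 and 2 left out, and each library left out in turn; the ratio to Cdh5 was chosen after seeing the data.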

Additional observations from a re-analysis of the deposited data

Results flagged for a closer look

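In 18 of the 34 genes, Ctrl chow library 3 stood apart from the other 5 Ctrl chow libraries by a gap that was a large share of the group's range, above Dixon's critical value for 6 libraries (0.625). In 102 sets of 1 gene in 1 group chance alone would flag about 1 in 20 if values were normally distributed. The rule was applied to CPM without a log scale, where a high value is flagged more easily. These genes also vary together, so the flags are not independent of each other. No other library of the Ctrl chow, Ctrl HFD and LIRKO chow groups stood apart in this way; the 3 LIRKO HFD libraries are too few for the rule. Among the receptors, library 3 had 70.6 CPM of Kdr, against 7.39 to 22.0 CPM in the others, 16.9 CPM of Eng, 5.43 CPM of Tie1, 3.89 CPM of Tek, 11.2 CPM of Ptprb, 8.24 CPM of Robo4, 14.9 CPM of Adgrl4 and 2.94 CPM of Calcrl. At junctions it had 17.3 CPM of Cdh5 and 16.4 CPM of Esam. At the surface and in fenestrae it had 4.51 CPM of Cd34, 14.5 CPM of Emcn, 11.2 CPM of Podxl, 1.11 CPM of Clec14a and 18.9 CPM of Plvap. Among secreted proteins it had 61.4 CPM of Esm1, against 9.77 to 18.8 CPM in the others, 11.1 CPM of Egfl7 and 4.48 CPM of Vwf. Library 3 was the highest of its group for 30 of the 34 genes.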

How the results depend on the processing

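The positive median of the endothelial genes on HFD held in both genotypes under every alternative run, but the number past the threshold did not. Counts are of all genes, with endothelial genes in parentheses where not 0. For Ctrl HFD against Ctrl chow (1914 genes, 11 endothelial) the DESeq2 Wald test gave 3959 (25), all genes with at least 1 count 457 (2), the 2 groups alone 1, the LIRKO chow pairs summed 114 (1), without pair 1 and 2 983 (21), without pair 3 and 4 1043 (21), and without Ctrl HFD libraries 1 and 2 34. For LIRKO HFD against LIRKO chow (392, 1) these gave in the same order 1059 (2), 250 (1), 3403 (2), 7, 3, 787 (30) and 1191 (2). For LIRKO chow against Ctrl chow (993) the DESeq2 test gave 1649, the groups alone 1653, pairs summed 193, without pair 1 and 2 477 (2), without pair 3 and 4 256 (1) and without Ctrl HFD libraries 1 and 2 1765. For LIRKO HFD against Ctrl HFD (98) DESeq2 gave 316, the groups alone 19, pairs summed 54 and without Ctrl HFD libraries 1 and 2 193. For the interaction (1), which could not be fitted with the compared groups alone, DESeq2 gave 42, pairs summed 0, without pair 3 and 4 0 and without Ctrl HFD libraries 1 and 2 8. Leaving out each library in turn, the ranges were 69 to 3877 (0 to 28), 55 to 502 (0 to 1), 431 to 1126, 10 to 162 and 0 to 3, and 11 to 14 of the 15 nearest genes were shared. The cause of these shifts was not tested.

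Some fold changes of the genotype comparisons changed sign. In LIRKO chow against Ctrl chow without pair 3 and 4, Pecam1 was -1.45, Cdh5 -2.59 and Aplnr -0.65. Kdr was 0.66 without pair 1 and 2, 0.51 without Ctrl chow library 3, and 0.13 without LIRKO chow library 1 or 2; leaving out single libraries it ran from -0.84 to 0.51. In LIRKO HFD against Ctrl HFD, Kdr, at 0.00, was -0.29 without LIRKO HFD library 1, -0.0027 without LIRKO chow library 4 and 0.16 without LIRKO HFD library 3, with -0.016 under the stricter filter, -0.015 with the groups alone, and -0.08, -0.02 and -0.07 without Ctrl HFD library 3, 4 or 5. The interaction of Aplnr was 0.98 without pair 3 and 4. No paired analysis was possible because the labels give no replicate numbers. Genes under 1 CPM, such as Sox17, Aplnr and Cldn5, rest on few counts in the chow libraries.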
